A study of Homo sapiens with 12 samples.

Results

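The genes described here are 38 autophagy and lysosome genes of LNCaP cells, a human prostate cancer line that responds to androgen. They were chosen by name for what their products do, by a rule that uses no measured value but was set with earlier results of these data known, and are 38 of the 34643 genes in the deposited count table. The autophagy core holds 23 of them, and the lysosomal genes are the other 15. All 38 passed the filter on low counts, which left 15419 genes. RNA-seq covered 12 libraries in 4 groups of 3: a line called sh_scramble and a line called sh_TMEFF2, each without DHT (−DHT) and with it (+DHT). All cells had been transduced with lentivirus of the pLKO.1-puro vector, in which the U6 promoter drives an shRNA, and were selected with 1 µg/ml puromycin. The shRNA was a scrambled control in the sh_scramble line and targeted TMEFF2, which encodes a transmembrane protein, in the sh_TMEFF2 line. All cells were held for 24 h in hormone-depleted serum and then received either the androgen DHT at 10 nM or ethanol vehicle for 24 h. Libraries of one group were separate treatments and extractions, but it is not given here which of them came from which transduction, so the p-values measure the spread between these libraries.

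Autophagy encloses cytoplasm and damaged organelles in a double membrane, the autophagosome, and delivers them to the lysosome for breakdown. A kinase complex around ULK1 starts it, a lipid kinase with BECN1 marks the growing membrane with PI3P, WIPI proteins read that mark, and a conjugation system attaches ATG8 proteins such as LC3 to the membrane, where receptors such as p62 tether the cargo. In the lysosome, a proton pump acidifies the lumen, cathepsins and glycosidases digest its contents, and the transcription factors TFEB and TFE3 switch on many lysosome genes through E-boxes. In prostate cells androgens act through the androgen receptor, and the kinases mTOR and AMPK set the rate of autophagy from the supply of nutrients and energy.

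The E-box bound by TFEB and TFE3 has the core CACGTG, and TCACGTGA is its extended form, which contains the core. Both read the same on either strand. Promoters were taken from RefSeq on GRCh38.p14, from 250 bases before to 50 bases after each gene's start, and 31 of the 38 genes had one. RB1CC1, ATG4D, LAMP2, CTSB, HEXA, ATP6V1A and ATP6V1H had none. The core stood in 6 of the 10 lysosomal promoters (60%) and in 2 of the 21 autophagy core promoters (9.52%). Over the whole promoter set it stood in 2548 of 35116 (7.26%). That set holds all windows of this length and not only those of the genes tested, while each member gave 1 window. The extended form stood in 4 of the 10 lysosomal promoters (40%), in 1 of the 21 autophagy core promoters (4.76%) and in 344 of all promoters (0.98%). These matches are a description of letters and are not binding sites measured in these cells. The 5 promoters with the extended form are shown with E-boxes in capitals, and that of WIPI1, the gene with the largest response below, is shown beside them because it held neither form.
LAMP1, chr13:113296989-113297288, plus strand: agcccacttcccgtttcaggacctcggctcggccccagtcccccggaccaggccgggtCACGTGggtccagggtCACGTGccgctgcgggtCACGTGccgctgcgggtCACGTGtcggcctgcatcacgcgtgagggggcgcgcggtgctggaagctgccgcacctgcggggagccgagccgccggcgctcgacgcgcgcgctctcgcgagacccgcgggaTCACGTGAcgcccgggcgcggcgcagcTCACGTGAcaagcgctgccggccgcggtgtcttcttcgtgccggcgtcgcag
MCOLN1, chr19:7522374-7522673, plus strand: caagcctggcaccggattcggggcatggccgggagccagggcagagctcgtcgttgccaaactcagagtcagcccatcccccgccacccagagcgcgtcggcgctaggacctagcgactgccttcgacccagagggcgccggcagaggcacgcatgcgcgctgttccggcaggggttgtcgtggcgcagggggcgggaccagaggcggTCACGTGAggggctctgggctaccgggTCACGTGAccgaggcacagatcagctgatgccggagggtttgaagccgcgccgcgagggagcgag
CTSA, chr20:45891085-45891384, plus strand: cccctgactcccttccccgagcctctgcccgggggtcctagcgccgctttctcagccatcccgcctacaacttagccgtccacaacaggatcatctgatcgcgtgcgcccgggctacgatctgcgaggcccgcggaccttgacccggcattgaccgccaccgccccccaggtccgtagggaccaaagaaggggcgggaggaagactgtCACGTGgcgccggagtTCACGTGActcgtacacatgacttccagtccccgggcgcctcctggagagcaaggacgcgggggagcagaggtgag
ATP6V0D1, chr16:67481108-67481407, minus strand: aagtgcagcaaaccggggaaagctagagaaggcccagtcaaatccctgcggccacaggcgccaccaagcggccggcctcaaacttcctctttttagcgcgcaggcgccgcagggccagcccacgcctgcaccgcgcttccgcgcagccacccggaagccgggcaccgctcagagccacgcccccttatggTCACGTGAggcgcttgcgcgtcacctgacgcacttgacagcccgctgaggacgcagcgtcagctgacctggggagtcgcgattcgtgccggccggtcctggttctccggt
ATG3, chr3:112561913-112562212, minus strand: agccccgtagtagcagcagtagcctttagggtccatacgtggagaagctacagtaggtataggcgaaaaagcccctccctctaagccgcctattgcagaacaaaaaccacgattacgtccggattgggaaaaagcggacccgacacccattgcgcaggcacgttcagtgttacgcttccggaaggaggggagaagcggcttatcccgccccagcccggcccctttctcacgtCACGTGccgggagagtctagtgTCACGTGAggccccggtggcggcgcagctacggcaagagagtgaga
WIPI1, chr17:68457447-68457746, minus strand: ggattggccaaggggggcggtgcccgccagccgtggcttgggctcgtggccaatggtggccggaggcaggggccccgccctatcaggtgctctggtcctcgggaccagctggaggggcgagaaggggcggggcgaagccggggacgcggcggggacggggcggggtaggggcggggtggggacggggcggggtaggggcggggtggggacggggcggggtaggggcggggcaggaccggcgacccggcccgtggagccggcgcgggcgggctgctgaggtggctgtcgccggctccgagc

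LAMP1, which encodes an abundant protein of the lysosomal membrane, held 6 cores in this window, 2 of them extended. MCOLN1, the gene of a calcium channel of the lysosome, held 2, both extended and within 41 bases before the start. CTSA, the gene of cathepsin A, and ATG3, the gene of the enzyme that passes ATG8 proteins to lipid, held 2 each, 1 of them extended. ATP6V0D1, the gene of a proton pump subunit, held 1 extended E-box. CTSD, NEU1 and ATG14 held a single core without the extension.

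**Figure D1:**
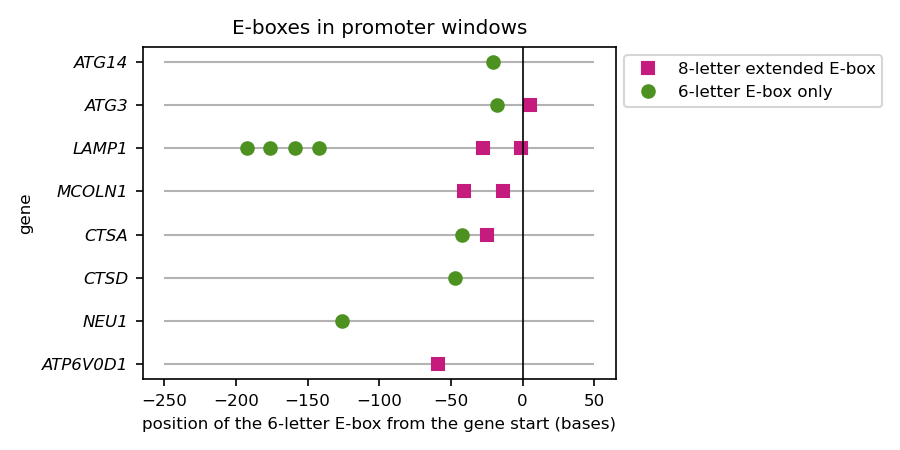
Positions of E-boxes in the promoter windows of the 8 member genes that hold any. The horizontal axis is the distance of the 6-letter core from the gene's start in bases, each line is 1 gene, squares are extended E-boxes and circles are cores alone. In LAMP1 the 6 cores spread from 192 bases before the start to the start itself, and the other 7 genes hold 1 or 2.

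Totals ran from 19450866 to 22612046 estimated counts per library (median 21194622), so the depth was close between groups. Levels below are TMM-normalized CPM, a library's count scaled to a common total, which are not divided by gene length, so they are compared between groups and not between genes. TMEFF2 itself measured 77.8, 73.8 and 103 CPM in sh_scramble −DHT and 68.6, 39.3 and 81.7 CPM in sh_TMEFF2 −DHT, and the groups overlapped (log2 fold change −0.43, SE 0.25, adjusted p = 0.50). With DHT it measured 173, 117 and 169 CPM in sh_scramble and 142, 90.1 and 114 CPM in sh_TMEFF2 (log2 fold change −0.41, SE 0.25, adjusted p = 0.30). The knockdown was therefore not past the test in these libraries, and the lines are called by their labels. The androgen-induced genes KLK3 and FKBP5 rose with DHT in both lines. FKBP5 rose 10.4-fold in sh_scramble and 1.85-fold in sh_TMEFF2, and the difference of its responses passed the test in edgeR (log2 −2.50, adjusted p = 8.4e-05). KLK3 rose 3.89-fold and 5.47-fold, where the difference of the KLK3 responses did not pass the test (log2 0.49, adjusted p = 0.46). The KLK3 level in sh_TMEFF2 was 0.185 of that in sh_scramble without DHT and 0.260 with DHT (adjusted p = 2.8e-04 and 8.3e-05 in edgeR). The 10 prostate epithelial markers summed to 6950 to 7190 CPM in sh_scramble −DHT, 14500 to 16100 in sh_scramble +DHT, 4470 to 5070 in sh_TMEFF2 −DHT and 5450 to 6940 in sh_TMEFF2 +DHT. KLK3 is among the 10, with mean levels of 1925, 7495, 356 and 1949 CPM in these groups in the same order. Over all libraries TMPRSS2 ran from 79.8 to 1740 CPM, HOXB13 from 346 to 522 CPM and EPCAM from 98.7 to 121 CPM. The 12 markers of other cell types summed to 46.8 to 58.3 CPM in sh_scramble and 59.8 to 72.7 in sh_TMEFF2 libraries. The highest of them were COL1A1 (11.9 to 30.4 CPM) and VWF (11.8 to 28.3 CPM), and the basal cell marker KRT5 was at 0 in all libraries. The part of these markers in the differences between lines was not tested, and in bulk RNA fewer cells of a kind and less RNA per cell cannot be told apart.

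The first comparison asked how DHT changed the 38 genes in control cells. In sh_scramble, WIPI1, whose product reads PI3P on the growing autophagosome, rose 2.37-fold, while SQSTM1, the gene of the cargo receptor p62, fell to 0.633 of its level. The other 7 genes that changed all fell, to between 0.77 and 0.82 of their level, and 5 of them were lysosomal. A gene is said to have risen, fallen or changed here where its adjusted p was at most 0.05 in the quasi-likelihood test of edgeR, adjusted by Benjamini-Hochberg across the 15419 genes. By that rule 1 of 38 members rose and 8 fell, where 14.4% of all genes tested rose and 12.6% fell. With library size in place of TMM, 1 rose and 13 fell. A change of at least 1.5-fold was reached by 2 members, WIPI1 and SQSTM1, against 11.9% of all genes. The median log2 fold change was −0.05 for the autophagy core and −0.12 for the lysosomal genes, beside −0.01 for all genes tested.

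**Figure D2:**
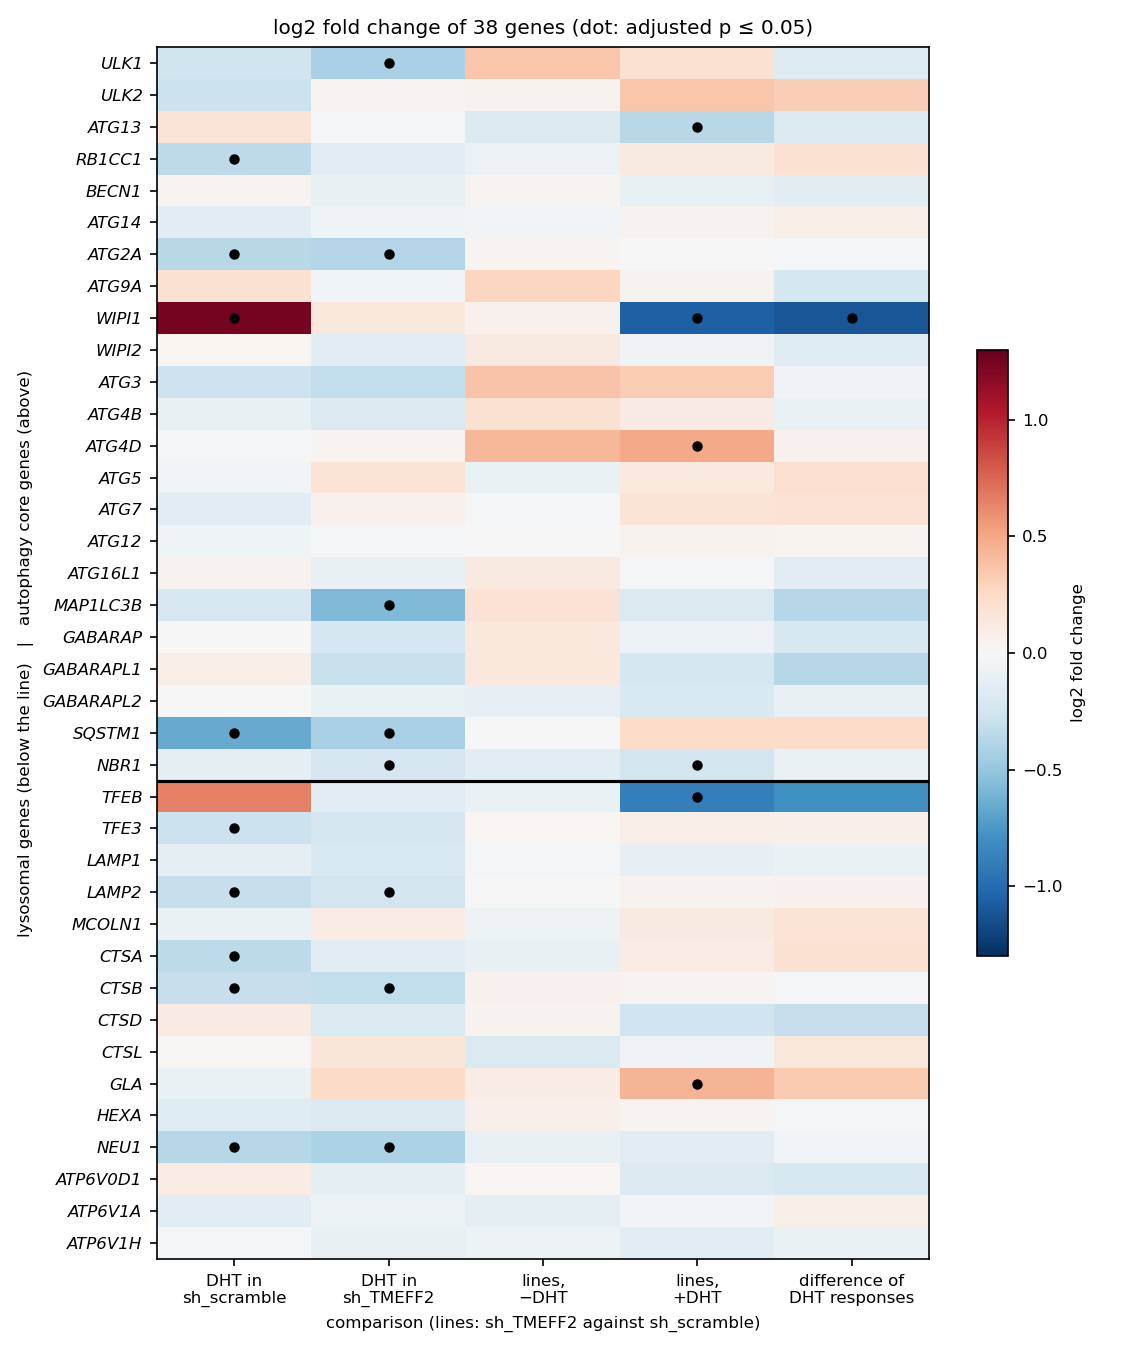
Log2 fold changes of the 38 genes (rows, by role) in the 5 comparisons (columns), in colour from blue (lower) to red (higher), with a dot where the adjusted p was at most 0.05. The 2 columns for lines compare sh_TMEFF2 with sh_scramble. The line divides the 23 autophagy core genes from the 15 lysosomal genes. WIPI1 is the only member with a dot in the column for the difference of the DHT responses.

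WIPI1 spans bases 68420948 to 68457513 of chromosome 17 (GRCh38, minus strand). It measured 10.4, 8.37 and 10.3 CPM in the sh_scramble −DHT libraries and 23.2, 24.3 and 21.7 CPM in sh_scramble +DHT. All 3 libraries with DHT stood above all 3 without it, and the log2 fold change was 1.25 (SE 0.13, adjusted p = 1.9e-05). In sh_TMEFF2 its levels were 10.0, 11.4 and 8.82 CPM without DHT and 9.77, 11.4 and 12.1 CPM with DHT. These ranges overlapped each other and that of the sh_scramble −DHT libraries. ARSG, which encodes a lysosomal sulfatase, lies across it on the other strand and shares 829 of the 3403 exonic bases of WIPI1 (24.4%), and the counting is not stated to use strand, so reads of the shared part cannot be told apart. ARSG, looked up because of this overlap, measured 20.3 to 21.7 CPM in sh_scramble −DHT and 39.4 to 40.5 CPM in sh_scramble +DHT. It rose by a log2 fold change of 0.93 (SE 0.14) in sh_scramble and 0.50 (SE 0.14) in sh_TMEFF2, with adjusted p of 2.7e-04 and 0.031. The part of ARSG reads in the WIPI1 result was not tested.

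Among the autophagy core genes that fell, SQSTM1 measured 423, 549 and 547 CPM in sh_scramble −DHT and 288, 340 and 333 CPM in sh_scramble +DHT. The groups did not overlap, and the log2 fold change was −0.66 (SE 0.12, adjusted p = 0.0014). MRNIP, on the other strand, shares 1582 of the 7535 exonic bases of SQSTM1. ATG2A, whose product carries lipid into the growing membrane, measured 49.1, 47.4 and 51.5 CPM without DHT and 39.4, 38.1 and 38.1 CPM with DHT, also apart. Its log2 fold change was −0.36 (SE 0.070, adjusted p = 0.0023). RB1CC1, the scaffold of the ULK1 complex, went from 99.9, 105 and 96.6 CPM to 80.4, 78.6 and 79.4 CPM, again without overlap (log2 fold change −0.34, SE 0.075, adjusted p = 0.0050).

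ULK1, the kinase that starts autophagy, measured 68.2, 70.6 and 73.7 CPM without DHT and 51.9, 52.6 and 72.8 CPM with DHT. Replicate 3 with DHT stood within the range without DHT, and the difference did not pass the test (log2 fold change −0.26, SE 0.11, adjusted p = 0.098). Without that library the log2 fold change was −0.44 and ULK1 was called as lower (adjusted p = 0.0011, with 0.0011 to 0.31 over the alternatives). MAP1LC3B, the gene of LC3B, measured 66.8, 65.0 and 69.8 CPM against 59.5, 58.5 and 56.5 CPM, apart but not past the test (log2 fold change −0.21, SE 0.18, adjusted p = 0.42). GABARAPL1, another ATG8 family gene, measured 68.6, 56.7 and 71.1 CPM against 66.5, 62.5 and 78.2 CPM and overlapped (log2 fold change 0.08, SE 0.11, adjusted p = 0.66). Reads of MAP1LC3B and GABARAPL1 are uncertain, because near-identical copies of each exist in the genome. None of the 7 conjugation genes and none of the 4 ATG8 family genes changed in sh_scramble, and 0 of these 11 had an unadjusted p under 0.05 in edgeR. With DESeq2 and limma-voom they were also not called.

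Of the lysosomal genes, NEU1, which encodes a sialidase, measured 62.6, 72.3 and 56.1 CPM without DHT and 53.7, 48.2 and 45.8 CPM with DHT in sh_scramble. All libraries with DHT stood lower (log2 fold change −0.37, SE 0.11, adjusted p = 0.023). CTSB, the gene of the protease cathepsin B, went from 142, 134 and 135 CPM to 112, 106 and 115 CPM (log2 fold change −0.30, SE 0.062, adjusted p = 0.0031). LAMP2, a membrane protein that also serves in chaperone-mediated autophagy, went from 351, 353 and 309 CPM to 280, 281 and 262 CPM (log2 fold change −0.30, SE 0.069, adjusted p = 0.0067). Neither gene's groups overlapped. CTSA measured 37.2, 40.1 and 32.9 CPM against 26.2, 32.2 and 28.3 CPM (log2 fold change −0.34, SE 0.12, adjusted p = 0.044). NEURL2, on the other strand, shares 959 of the 8633 exonic bases of CTSA. TFE3 measured 70.2, 60.5 and 66.9 CPM against 52.5, 48.8 and 61.1 CPM, where replicate 3 with DHT lay just inside the range without it (log2 fold change −0.28, SE 0.085, adjusted p = 0.027).

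TFEB was low in all libraries, with 90 to 250 counts each. It measured 6.65, 6.17 and 4.80 CPM in sh_scramble −DHT and 12.6, 7.62 and 7.50 CPM in sh_scramble +DHT. The groups did not overlap, but replicate 1 with DHT stood far above the other libraries, and the difference did not pass the test (log2 fold change 0.65, SE 0.23, adjusted p = 0.051). Without that library it was 0.36. DESeq2 called TFEB as higher, limma-voom did not, and over 10 other settings it was called in 4. LAMP1 measured 154, 158 and 148 CPM against 148, 139 and 137 CPM, with a log2 fold change of −0.12 (SE 0.068, adjusted p = 0.22). CTSD, the gene of cathepsin D, measured 222, 224 and 203 CPM against 254, 221 and 227 CPM (log2 fold change 0.11, SE 0.082, adjusted p = 0.35). ATP6V0D1 measured 122, 130 and 114 CPM against 142, 120 and 127 CPM (log2 fold change 0.09, SE 0.086, adjusted p = 0.47). Of the genes whose E-box promoters are shown above, CTSA fell with DHT in sh_scramble, and LAMP1, MCOLN1, ATP6V0D1 and ATG3 did not pass the test for DHT in either line. Of the genes with a single core without the extension, NEU1 fell in both lines, and CTSD and ATG14 did not pass in either.

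The calls for WIPI1, SQSTM1, ATG2A, RB1CC1, CTSB and LAMP2 in sh_scramble held in every one of 12 fits, each without 1 library. TFE3 held in 8 of 12, and was lost without sh_scramble −DHT replicate 1 or 3 or sh_scramble +DHT replicate 1 or 2, with a log2 fold change of −0.38 to −0.21 over the 12 fits. NEU1 also held in 8, and was lost without sh_scramble −DHT replicate 1 or 2 or sh_scramble +DHT replicate 2 or 3 (−0.45 to −0.27). CTSA held in 5 (−0.43 to −0.28).

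The second comparison asked the same in cells with the TMEFF2 shRNA. In sh_TMEFF2, 8 of the 38 genes fell with DHT and 0 rose, and WIPI1 was not among the changed genes. The genes that fell were MAP1LC3B, ULK1, SQSTM1, ATG2A and NBR1 of the autophagy core and NEU1, CTSB and LAMP2 of the lysosomal genes. Of all genes tested, 7.84% rose and 5.21% fell in this comparison, and 4.88% changed by at least 1.5-fold, which no member did. Of the members, 1 had a higher level at an unadjusted p under 0.05 in edgeR, and DESeq2 and limma-voom also called 0 as higher. The median log2 fold change was −0.10 for the autophagy core and −0.14 for the lysosomal genes, beside −0.02 for all genes tested.

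ULK1 measured 91.7, 95.2 and 86.1 CPM in sh_TMEFF2 −DHT and 68.5, 69.9 and 65.0 CPM in sh_TMEFF2 +DHT. The groups stood apart, with a log2 fold change of −0.42 (SE 0.11, adjusted p = 0.024). SQSTM1 measured 449, 550 and 523 CPM against 350, 437 and 351 CPM (log2 fold change −0.42, SE 0.12, adjusted p = 0.037). ATG2A measured 48.7, 52.0 and 50.6 CPM against 39.6, 41.4 and 35.4 CPM (log2 fold change −0.38, SE 0.069, adjusted p = 0.0044). NBR1, a receptor for ubiquitinated cargo like p62, measured 196, 213 and 202 CPM against 188, 161 and 177 CPM (log2 fold change −0.22, SE 0.065, adjusted p = 0.042). In each of these genes every library with DHT stood below every library without it.

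MAP1LC3B fell by 0.58 on the log2 scale (SE 0.18, adjusted p = 0.049), but this rested on 1 library. Its levels were 61.9, 108 and 58.9 CPM without DHT and 51.5, 54.0 and 48.0 CPM with DHT, so that replicate 2 without DHT stood far above the other 2. Without that library the log2 fold change was −0.24, and over the 12 fits with a library left out the call held in 2. GABARAPL1 measured 73.8, 78.5 and 64.4 CPM against 63.7, 59.7 and 53.5 CPM, apart but not past the test (log2 fold change −0.29, SE 0.11, adjusted p = 0.11).

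NEU1 measured 55.9, 65.3 and 57.4 CPM in sh_TMEFF2 −DHT and 45.0, 49.4 and 40.0 CPM in sh_TMEFF2 +DHT (log2 fold change −0.41, SE 0.11, adjusted p = 0.027). CTSB measured 141, 151 and 135 CPM against 119, 112 and 111 CPM (log2 fold change −0.32, SE 0.062, adjusted p = 0.0055). LAMP2 measured 336, 361 and 309 CPM against 289, 284 and 280 CPM (log2 fold change −0.24, SE 0.069, adjusted p = 0.039). The ranges of these 3 lysosomal genes did not overlap. LAMP1 measured 136, 157 and 160 CPM against 127, 133 and 135 CPM, lower in all libraries with DHT but not past the test (log2 fold change −0.20, SE 0.068, adjusted p = 0.073). The values for TFE3 were 67.1, 68.5 and 65.8 CPM against 59.4, 54.7 and 58.9 CPM (log2 fold change −0.22, SE 0.085, adjusted p = 0.11). TFEB stayed between 4.11 and 6.31 CPM in all 6 libraries (log2 fold change −0.14, SE 0.23, adjusted p = 0.75). CTSD and ATP6V0D1 overlapped between groups, with log2 fold changes of −0.19 (SE 0.082, adjusted p = 0.16) and −0.11 (SE 0.086, adjusted p = 0.44).

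The count of 8 fell to 2 without sh_TMEFF2 −DHT replicate 2 and to 2 without sh_TMEFF2 +DHT replicate 3. It was 4 without sh_TMEFF2 +DHT replicate 1 or 2, and 5 without sh_scramble +DHT replicate 1 or 2. The calls for ATG2A and CTSB held in all 12 fits with a library left out, NEU1 in 9, ULK1 and SQSTM1 in 8, LAMP2 in 5 and NBR1 in 1.

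**Figure D3:**
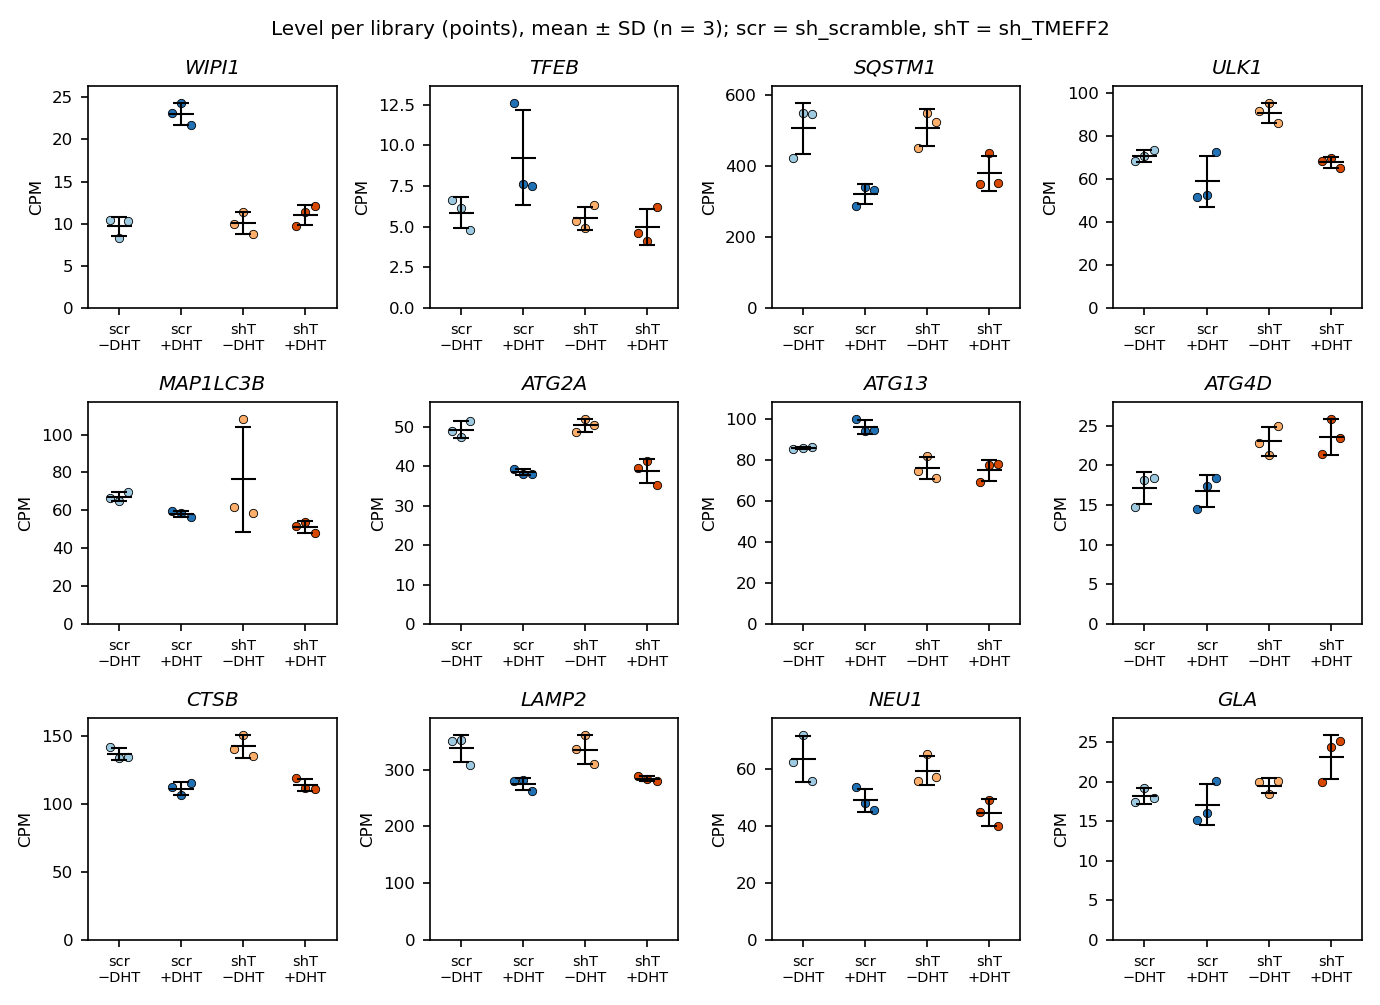
Levels of 12 member genes in CPM (vertical axes, from 0) in the 4 groups, with 1 point per library and bars for mean ± SD (n = 3). On the horizontal axes, scr stands for sh_scramble and shT for sh_TMEFF2. WIPI1 is high in the 3 sh_scramble +DHT libraries alone, at 21.7 to 24.3 CPM, and the MAP1LC3B panel shows the single sh_TMEFF2 −DHT library at 108 CPM.

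Summed per library, the 23 autophagy core genes gave 2218 to 2329 CPM in sh_scramble −DHT, 2006 to 2047 CPM in sh_scramble +DHT, 2251 to 2540 CPM in sh_TMEFF2 −DHT and 1921 to 2102 CPM in sh_TMEFF2 +DHT. Both lines were lower with DHT, without overlap, and the lines overlapped each other in each condition. SQSTM1 and GABARAP weigh most in this sum, so the mean log2 CPM, in which each gene weighs the same, is given beside it. It ran from 6.01 to 6.03 in sh_scramble −DHT and from 5.95 to 5.98 in sh_scramble +DHT, and from 6.02 to 6.18 and from 5.90 to 5.99 in sh_TMEFF2 without and with DHT. The 15 lysosomal genes summed to 1546 to 1694 CPM in sh_scramble −DHT, 1457 to 1565 CPM in sh_scramble +DHT, 1558 to 1729 CPM in sh_TMEFF2 −DHT and 1407 to 1473 CPM in sh_TMEFF2 +DHT. The lysosomal ranges with and without DHT overlapped in sh_scramble and stood apart in sh_TMEFF2.

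The third comparison set the lines side by side without androgen. In sh_TMEFF2 −DHT against sh_scramble −DHT, 0 of the 38 genes changed in edgeR, where 0.623% of all genes were higher and 0.493% lower, and 0.571% differed by at least 1.5-fold. An unadjusted p under 0.05 was found for 8 members, 7 of them in the autophagy core. The shares of all genes just given are for adjusted p, and the share with an unadjusted p under 0.05 was not counted. The 8 are therefore not read as many or few. DESeq2 called 2, ATG4D and ULK1, both higher in sh_TMEFF2, and limma-voom called 0. ATG4D, the gene of a protease that trims ATG8 proteins, measured 14.8, 18.1 and 18.4 CPM in sh_scramble −DHT and 22.8, 21.3 and 25.0 CPM in sh_TMEFF2 −DHT. Every sh_TMEFF2 library stood above every sh_scramble library (log2 fold change 0.43, SE 0.12, adjusted p = 0.12). The ULK1 levels given above also stood apart between the lines without DHT (log2 fold change 0.36, SE 0.11, adjusted p = 0.15).

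For the representatives of the other steps the interval of the difference between the lines without DHT included 0. The log2 fold change was 0.00 for SQSTM1 (95% interval −0.26 to 0.26), 0.19 for MAP1LC3B (−0.19 to 0.57) and 0.14 for GABARAPL1 (−0.10 to 0.38). For the lysosomal genes it was −0.09 for TFEB (−0.59 to 0.41), 0.03 for TFE3 (−0.16 to 0.21), −0.02 for LAMP1 (−0.17 to 0.13), 0.04 for CTSD (−0.13 to 0.22) and 0.02 for ATP6V0D1 (−0.17 to 0.21). The widest of these intervals was that of TFEB, the gene with the fewest counts. The medians were 0.05 for the autophagy core and −0.02 for the lysosomal genes, beside −0.0037 for all genes tested.

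The fourth comparison set the lines side by side with androgen. In sh_TMEFF2 +DHT against sh_scramble +DHT, WIPI1 was 0.481 of the sh_scramble level and TFEB 0.540, and ATG13 and NBR1 were also lower. ATG4D and GLA, the gene of the glycosidase alpha-galactosidase A, were higher, by 1.41-fold and 1.35-fold. In all, 2 of the 38 members were higher and 4 lower, where 6.93% of all genes tested were higher and 9.09% lower. With library size in place of TMM, 3 members were higher and 3 lower. WIPI1 and TFEB differed by at least 1.5-fold, as did 6.77% of all genes. The median log2 fold change was 0.04 for the autophagy core and −0.04 for the lysosomal genes, beside 0.0041 for all genes. The sh_scramble +DHT libraries enter this comparison and the first one, so the values of the 2 comparisons are not independent.

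For WIPI1, whose levels are given above, all sh_TMEFF2 +DHT libraries stood below all sh_scramble +DHT libraries (log2 fold change −1.06, SE 0.13, adjusted p = 1.3e-04), and the call held in all 12 fits with a library left out. ATG13, a partner of ULK1 in the initiation complex, measured 100.2, 94.2 and 94.5 CPM in sh_scramble +DHT and 69.1, 77.5 and 78.2 CPM in sh_TMEFF2 +DHT. The groups were apart (log2 fold change −0.36, SE 0.069, adjusted p = 0.0035), also in all 12 such fits. NBR1 measured 212, 205 and 203 CPM against 188, 161 and 177 CPM (log2 fold change −0.24, SE 0.065, adjusted p = 0.026). ATG4D measured 14.5, 17.4 and 18.4 CPM against 21.4, 25.9 and 23.5 CPM, with every sh_TMEFF2 library above every sh_scramble library as without DHT (log2 fold change 0.49, SE 0.12, adjusted p = 0.016). KRI1, on the other strand, shares 334 of the 2278 exonic bases of ATG4D. The ATG4D call held in 10 of the 12 fits and the NBR1 call in 8.

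TFEB measured 12.6, 7.62 and 7.50 CPM in sh_scramble +DHT and 4.63, 4.11 and 6.23 CPM in sh_TMEFF2 +DHT. The groups were apart (log2 fold change −0.89, SE 0.23, adjusted p = 0.020), but the call was lost without sh_scramble +DHT replicate 1, where the log2 fold change was −0.59, and without sh_TMEFF2 +DHT replicate 1 or 2. GLA measured 15.1, 16.1 and 20.06 CPM against 19.95, 24.3 and 25.2 CPM, with ranges that overlapped at their ends (log2 fold change 0.44, SE 0.12, adjusted p = 0.027). RPL36A, on the other strand, shares 557 of the 6195 exonic bases of GLA. The GLA call held in 8 of the 12 fits with a library left out. The count of 6 changed members fell to 2 without sh_scramble +DHT replicate 1 and to 3 without sh_TMEFF2 +DHT replicate 2.

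The other representatives did not pass the test between the lines with DHT. CTSD measured 254, 221 and 227 CPM in sh_scramble and 193, 217 and 178 CPM in sh_TMEFF2, apart and just short of the threshold (log2 fold change −0.25, SE 0.082, adjusted p = 0.052). DESeq2 and limma-voom called it as lower, along with the ATG8 family gene GABARAPL2. The log2 fold change was 0.20 for ULK1 (95% interval −0.04 to 0.44), 0.24 for SQSTM1 (−0.02 to 0.50), −0.18 for MAP1LC3B (−0.57 to 0.20) and −0.23 for GABARAPL1 (−0.47 to 0.02). It was 0.09 for TFE3 (−0.09 to 0.28), −0.10 for LAMP1 (−0.25 to 0.05) and −0.19 for ATP6V0D1 (−0.37 to 0.00092).

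The last comparison asked whether the DHT response itself differed between the lines, as the interaction of shRNA and DHT. Of the 38 members it did so for WIPI1 alone, whose response was 1.11 lower on the log2 scale in sh_TMEFF2. No member had a higher response in sh_TMEFF2 in edgeR, DESeq2 or limma-voom, and 0 were so at an unadjusted p under 0.05 in edgeR, where 1.65% of all genes were called higher and 3.29% lower. A difference of at least 1.5-fold was called for 3.23% of all genes. WIPI1 had a log2 fold change of 1.25 in sh_scramble and 0.14 (SE 0.13, adjusted p = 0.55) in sh_TMEFF2, and the difference was −1.11 (SE 0.18, adjusted p = 0.0044). It held in all 12 fits with a library left out, at −1.19 to −1.01. The corresponding difference for ARSG was −0.43 (SE 0.19, adjusted p = 0.26).

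TFEB had the next largest difference, −0.80 (SE 0.33), which did not pass the test (adjusted p = 0.22). The differences of the 4 ATG8 family genes lay between −0.37 and −0.09, and none of them passed. For the others the 95% interval of the difference was −0.50 to 0.17 for ULK1, −0.13 to 0.61 for SQSTM1, −0.20 to 0.32 for TFE3, −0.29 to 0.13 for LAMP1 and −0.47 to 0.06 for ATP6V0D1. For CTSD it was −0.55 to −0.05, with an adjusted p of 0.19. The median difference was −0.09 for the autophagy core and −0.02 for the lysosomal genes, beside 0.0063 for all genes tested. ATG2A, CTSB, NEU1, LAMP2 and SQSTM1 fell in both lines, with log2 fold changes in sh_scramble and sh_TMEFF2 of −0.36 and −0.38 for ATG2A, −0.30 and −0.32 for CTSB, −0.37 and −0.41 for NEU1, −0.30 and −0.24 for LAMP2 and −0.66 and −0.42 for SQSTM1.

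**Figure D4:**
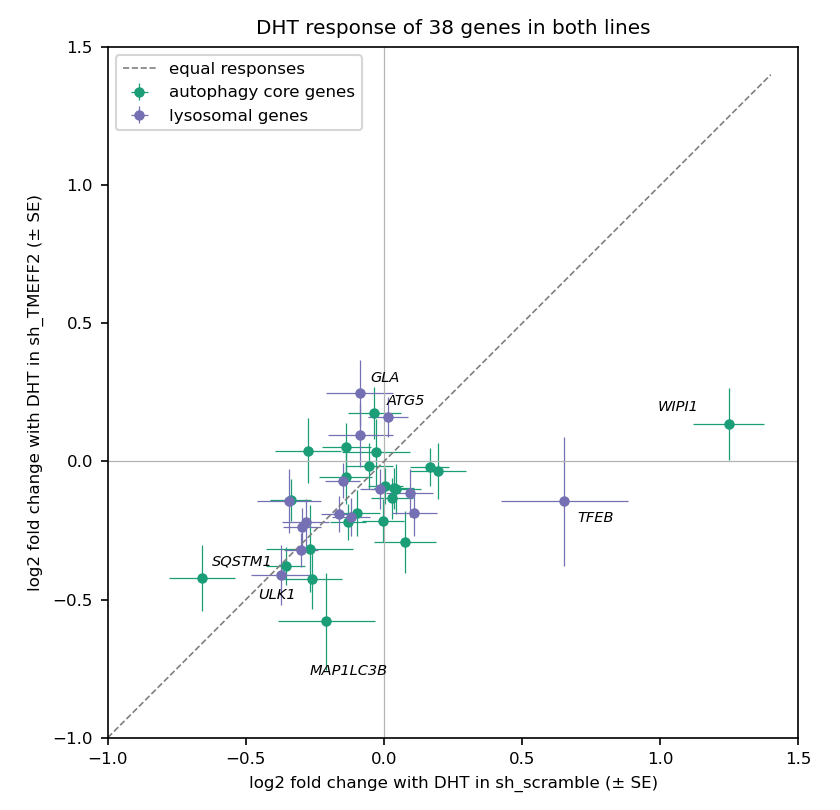
Log2 fold change with DHT in sh_scramble (horizontal axis) and sh_TMEFF2 (vertical axis) for the 38 genes, with bars of 1 SE. Green points are autophagy core genes and purple points lysosomal genes, and the dashed line marks equal responses. WIPI1 lies at 1.25 and 0.14, far to the right of the line, and TFEB at 0.65 and −0.14.

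Over the 5 comparisons, 16 of the 38 members changed in at least 1, and 22 in none in edgeR. The same share over all genes tested was not counted, so 16 of 38 is not read as many or few. For DHT in sh_scramble alone, 14.4% of all genes tested rose and 12.6% fell. The log2 fold changes of these 22 ran from −0.37 to 0.37, and their lowest adjusted p was 0.052. Among them were the only genes of the PI3-kinase complex within the 38, BECN1 (−0.13 to 0.04 over the comparisons) and ATG14 (−0.14 to 0.08). The lipid kinase subunit gene PIK3R4, outside the 38, rose with DHT in sh_TMEFF2, and its levels were higher with DHT in sh_scramble too, as given below. Of the conjugation machinery, ATG12 stayed within −0.05 and 0.04, ATG16L1 within −0.14 and 0.12, ATG7 within −0.14 and 0.19, ATG5 within −0.08 and 0.21 and ATG4B within −0.19 and 0.20. ATG3 ran wider, from −0.32 to 0.37, with 110, 123 and 72.6 CPM in the sh_TMEFF2 −DHT libraries, of which replicate 3 was low. ULK2, a second kinase of the ULK family, measured 35.0, 33.3 and 32.9 CPM in sh_scramble +DHT and 48.6, 44.5 and 36.8 CPM in sh_TMEFF2 +DHT, apart and just short of the threshold (log2 fold change 0.36, SE 0.12, adjusted p = 0.058), while DESeq2 called it as higher.

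ATG9A, which encodes a lipid scramblase carried on vesicles to the growing membrane, ran from −0.23 to 0.28, and WIPI2, the PI3P reader that recruits ATG16L1, from −0.16 to 0.12. Among the ATG8 family, GABARAP ran from −0.21 to 0.14 and GABARAPL2 from −0.20 to 0.0051. Of the lysosomal genes, all 3 proton pump genes were among the 22, ATP6V1A at −0.15 to 0.08 and ATP6V1H at −0.15 to −0.02. The channel gene MCOLN1 lay between −0.09 and 0.18, the protease gene CTSL between −0.19 and 0.16, and HEXA, the gene of a hexosaminidase subunit, between −0.19 and 0.07. Each of the other roles into which the members were sorted held at least 1 gene that passed the test in some comparison.

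Other genes of these pathways were read from lists of genes outside the 38. Over all genes tested, 14.4% rose and 12.6% fell with DHT in sh_scramble, and 7.84% and 5.21% in sh_TMEFF2. In sh_TMEFF2 against sh_scramble, 0.623% were higher and 0.493% lower without DHT, and 6.93% and 9.09% with DHT. The response was higher in sh_TMEFF2 for 1.65% and lower for 3.29%. The counts of the lists below were not tested against these shares. Of 37 other autophagy genes tested, 5 rose and 5 fell with DHT in sh_scramble, and 1 rose and 6 fell in sh_TMEFF2. VMP1, which serves in autophagosome formation at the endoplasmic reticulum, rose from 104 to 121 CPM without DHT to 170 to 202 CPM with DHT in sh_scramble (log2 fold change 0.72, SE 0.10, adjusted p = 2.0e-04), and TMEM41B, which acts with it, rose by 0.48 on that scale. TP53INP1, a stress-induced gene whose product binds ATG8 proteins, fell from 582 to 669 CPM to 241 to 287 CPM (log2 fold change −1.21, SE 0.13, adjusted p = 2.7e-05), and WDFY3 had a log2 fold change of −0.81. In sh_TMEFF2 the lipid kinase subunit gene PIK3R4 rose (0.42), and TP53INP2 and TECPR1 fell most (−0.59 and −0.57). PIK3R4 measured 50.0 to 55.7 CPM without DHT and 65.8 to 76.5 CPM with DHT in sh_TMEFF2. In sh_scramble it measured 53.0 to 57.7 CPM and 67.1 to 76.5 CPM, also higher in all libraries with DHT. Between the lines, 1 was higher (TP53INP2, 0.67) and 0 lower without DHT in edgeR (1 lower at an unadjusted p under 0.05, 1 called lower by DESeq2 and 0 by limma-voom), and 2 were higher (TP53INP1, 0.78, and ATG16L2, 0.54) and 6 lower with DHT, led by TMEM41B (−0.49) and TECPR1 (−0.47). The response differed for 3, higher in sh_TMEFF2 for TP53INP1 (0.71, adjusted p = 0.045) and lower for TECPR1 (−0.72, adjusted p = 0.027) and WDR45 (−0.39, adjusted p = 0.031).

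Of 62 other lysosomal genes, 10 rose and 9 fell with DHT in sh_scramble, and 2 rose and 8 fell in sh_TMEFF2. The shares of all genes tested given above stand beside these counts too. ASAH1, the gene of acid ceramidase, rose in both lines (log2 fold change 0.64 and 0.33), and the proton pump gene ATP6V0A2 rose in sh_scramble (0.60). CTSK, the gene of cathepsin K, fell from 6.58 to 7.29 CPM to 2.73 to 3.501 CPM in sh_scramble (−1.21, SE 0.18, adjusted p = 2.8e-04), LAPTM4B fell in both lines (−0.80 and −0.48) and IDS fell most after it in sh_TMEFF2 (−0.40). Between the lines 0 changed without DHT in edgeR, with 8 at an unadjusted p under 0.05, and DESeq2 called 1 and limma-voom 0. With DHT 6 were higher in sh_TMEFF2, led by MANBA (0.71) and CTSK (0.65), and 9 lower, led by CD63 (−0.48) and ASAH1 (−0.46). The response was higher in sh_TMEFF2 for CTSK (1.05, SE 0.25, adjusted p = 0.030) and lower for LIPA, the gene of lysosomal acid lipase (−0.51, SE 0.096, adjusted p = 0.0096).

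Among 39 genes that set mTORC1 and AMPK activity, 5 rose and 7 fell with DHT in sh_scramble, and 2 rose and 2 fell in sh_TMEFF2. These counts also stand beside the shares of all genes tested given above. MTOR, whose kinase holds ULK1 and TFEB inactive, measured 94.6, 98.5 and 103 CPM in sh_scramble −DHT and 199.9, 194 and 193 CPM in sh_scramble +DHT, against 77.5, 83.7 and 76.9 CPM and 104.8, 99.8 and 112 CPM in sh_TMEFF2. It rose in both lines (log2 fold change 0.99 and 0.41), with a difference of −0.57 (SE 0.089, adjusted p = 0.0029). CAMKK2, which encodes a kinase that activates AMPK, measured 115, 134 and 136 CPM against 308, 309 and 300.5 CPM in sh_scramble and 97.5, 93.1 and 133 CPM against 115, 117 and 146 CPM in sh_TMEFF2. It rose in sh_scramble (log2 fold change 1.26), and its response was lower in sh_TMEFF2 by −1.03 (SE 0.18, adjusted p = 0.0061). The sestrin genes SESN3 and SESN1, whose products restrain mTORC1, fell in sh_scramble (−1.62 and −1.43), and their responses were higher in sh_TMEFF2 by 1.12 (SE 0.12, adjusted p = 3.9e-04) and 1.05 (SE 0.23, adjusted p = 0.019). In sh_TMEFF2 RHEB, which activates mTORC1, rose (0.28), and SESN3 and SESN2 fell (−0.50 and −0.31). Between the lines without DHT, edgeR called 1 gene lower, MTOR (−0.32, adjusted p = 0.035), limma-voom called 1 and DESeq2 called 3. None were higher in edgeR, DESeq2 or limma-voom or at an unadjusted p under 0.05. With DHT SESN3 (0.86) and SESN2 (0.38) were higher and 7 were lower, led by CAMKK2 (−1.28) and MTOR (−0.89).

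**Figure D5:**
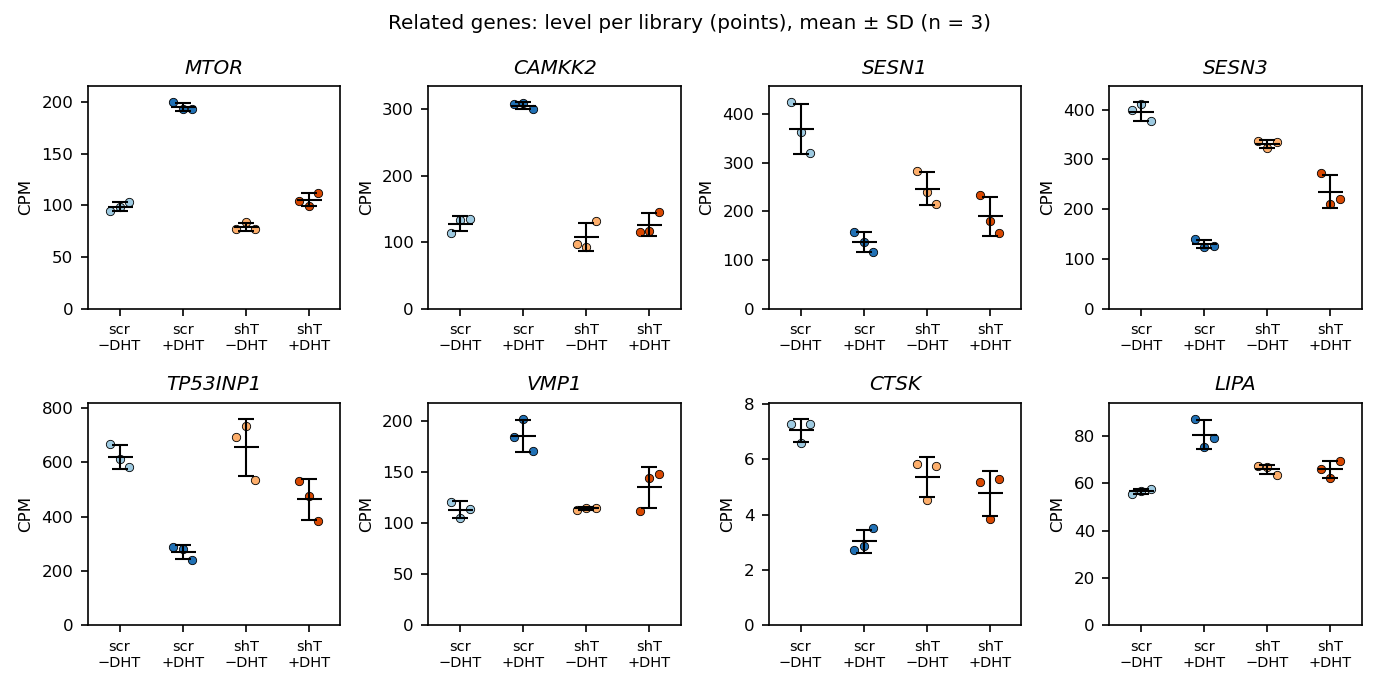
Levels in CPM (vertical axes, from 0) of 8 related genes outside the 38 in the 4 groups, with 1 point per library and bars for mean ± SD (n = 3). On the horizontal axes, scr stands for sh_scramble and shT for sh_TMEFF2. MTOR and CAMKK2 are highest in sh_scramble +DHT, at 193 to 199.9 and 300.5 to 309 CPM, and SESN1, SESN3, TP53INP1 and CTSK are lowest there.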

How the data were processed

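The authors checked reads with FastQC, removed contaminants, trimmed with Trimmomatic to at least 15 bp, and quantified 75 bp paired-end reads with kallisto 0.42.3 on GRCh38. They deposited estimated counts per gene (expected counts made with tximport, scaled by transcript length and library size), in 24 columns, 2 per library. Columns without an assigned library numbered 0. Both columns of each library were summed and the sums rounded.

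Counts were tested in R 4.3.3 with edgeR 4.0.16: TMM factors (0.955 to 1.04), filterByExpr (minimum count 10, minimum total 15), 1 coefficient per group over 12 libraries, quasi-likelihood tests, and Benjamini-Hochberg adjustment over 15419 genes. The fits were tested on simulated data, in which 199 of the genes tested were changed by 1 on the log2 scale in sh_TMEFF2 +DHT. With edgeR, 75.9% of them were recovered for DHT in sh_TMEFF2 and between the lines with DHT. For the difference of the DHT responses it was 62.8%. Wrong calls numbered 6, 6 and 10. Changes smaller than 1 on the log2 scale were not simulated, so these rates do not hold for them. The members other than WIPI1 stayed below that size. The SE of a log2 fold change was derived from its quasi-likelihood F value. Alternatives were DESeq2 1.42.0 and its size factors, limma-voom (limma 3.58.1), library size only, a mean above 5 CPM, no filter, either column alone, a replicate block, only the 6 libraries compared, each library left out, and a shorter promoter window.

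The members, lists, tests and alternatives were chosen with earlier results of these data known. Representatives (ULK1, SQSTM1, MAP1LC3B, GABARAPL1, TFEB, TFE3, LAMP1, CTSD and ATP6V0D1) are named in each comparison, with up to 6 changed members per subgroup and direction, up to 2 changed genes per list of related genes and direction, and TMEFF2, KLK3 and FKBP5. CTSA, ATG3, MCOLN1 and ATP6V0D1 are also named for their promoters. ARSG, RPL36A, MRNIP, KRI1, NEURL2 and GABARAPL2 were named after their values or positions were seen, and so were the single cell type markers other than KLK3. By the GENCODE annotation of GRCh38, 28 members overlap another gene, and 17 share exonic bases with a protein-coding gene. One gene that the rule would name is not reported here.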

Additional observations from a re-analysis of the deposited data

Results flagged for a closer look

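The DHT response of WIPI1 differed between the lines in a test of the difference itself. It was lower in sh_TMEFF2 than in sh_scramble by 1.11 on the log2 scale (log2 difference −1.11, SE 0.18, adjusted p = 0.0044 in edgeR's quasi-likelihood test). All 3 sh_scramble +DHT libraries stood above the other 9 libraries. The adjusted p was 6.3e-06 to 0.054 over the alternatives, and the call was lost where only the first column of each library was used. ARSG, whose exons overlap those of WIPI1 on the other strand, had a difference of −0.43 (SE 0.19, adjusted p = 0.26), and its part in the WIPI1 result was not tested.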

How the results depend on the processing

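No value changed direction while called under the alternatives run. Of the counts of changed members, that for DHT in sh_scramble was 9 and became 14 with library size only. That for DHT in sh_TMEFF2 was 8 and became 4 with the first column, 2 with the second column and 5 with the 6 libraries of the comparison alone, and 2 to 8 with each library left out. Between the lines without DHT it was 0 and became 2 with DESeq2 and 0 to 1 with each library left out. Between the lines with DHT it was 6 and became 2 with the second column and 2 to 8 with each library left out. The difference of the responses was called for 1 member, and for 0 with the first column. With the replicate number as a block, the count became 1 without DHT and 10 with DHT between the lines, 11 for DHT in sh_scramble (adding TFEB and HEXA) and 10 for DHT in sh_TMEFF2 (adding GABARAP and HEXA). The numbers were not taken as pairing the libraries, since no source says so and not every correlation was over 0.1: of 18 pairs of libraries with the same number, deviations from the group means correlated at −0.00172 to 0.169, 3 of them over 0.1, and 11 of 12 libraries correlated best with their own number, which is a hint from the data and not from the design. Of 620 values of named members under other settings, 575 kept direction and side of the threshold, 32 lost the call and 13 gained it. The causes were not tested. The shorter promoter window gave the same shares for the members, and 5.51% and 0.823% of all promoters for the core and the extended form. Library size only moved the median of all genes to −0.0816 for DHT in sh_scramble. TFEB, with 90 to 250 counts per library, had the lowest precision of the named members.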
